A study of Homo sapiens with 2 samples.

Results

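The genes described here encode the contractile and cortical actin cytoskeleton. They are 37 genes given by name, of the 60725 genes in the deposited gene table, and all 37 were found there under their symbols together with 480 transcripts. They comprise 3 actins, 4 crosslinkers, 10 filament-binding proteins, 6 myosin II chains, 7 adhesion plaque proteins, 3 membrane linkers and 4 proteins of filament turnover. The rule names the genes and uses no measured value, but it was drawn up with earlier results of these data known.

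Polyadenylated RNA was sequenced from KYSE30-Luc-GFP, an established human esophageal squamous cell carcinoma line into which luciferase and GFP had been introduced by lentivirus and drug selection. An antibody against CD44, the hyaluronan receptor, was used to sort the cultured cells, and the groups are CD44 high and CD44 low. All cells of both groups carry the reporters, no other treatment separates the groups, and each group gave 1 library. No difference below therefore has a replicate check, and the groups are fractions of 1 cell line. The comparison asks how cells with high and with low CD44 on their surface differ in transcript levels. The libraries held 21633236 expected counts in CD44 high and 22859583 in CD44 low, and CD44 itself had 22819 counts in CD44 high and 9727 in CD44 low, a ratio of 2.35 (95% counting interval 2.29 to 2.41). Mitochondrially encoded genes took 7.50% of counts in CD44 high and 14.003% in CD44 low.

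Actin filaments give a cell its cortex, its stress fibers and its attachment to the matrix. Tropomyosins lie along the filament, myosin II pulls on it, α-actinin and filamin tie filaments together, and talin, vinculin and zyxin couple them to integrins. Smooth muscle cells and activated fibroblasts carry a contractile version built from dedicated family members such as ACTA2, TAGLN, CNN1, TPM2 and MYL9, while other cells use nonmuscle paralogs. CD44 is joined to cortical actin through ezrin, radixin and moesin.

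Levels are given as TPM, a value per transcript length that allows genes of 1 library to be compared. Differences are given as the ratio of counts, scaled by median-of-ratios size factors, in CD44 high over CD44 low. Each ratio carries a 95% interval that covers counting error only. A gene was called where it had at least 50 counts in a library, stood at least 25% above its level in the other library and had an interval that excludes equality, in either direction.

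The contractile family members of smooth muscle were nearly absent from both libraries, so the word contractile in the name of the group rests on its nonmuscle members. MYL9, the regulatory light chain of smooth muscle myosin, had 0 counts in CD44 high and 0 in CD44 low, which allows up to 3 counts in a library. TAGLN, the smooth muscle marker transgelin, had 18 counts in CD44 high and 26 in CD44 low (ratio 0.693, interval 0.358 to 1.31), and its TPM of 2.01 in CD44 high and 1.31 in CD44 low lie in the opposite order. It overlaps PCSK7 on the opposite strand, which had 562 counts in CD44 high and 553 in CD44 low. CNN1, calponin of differentiated smooth muscle, had 0 counts in CD44 high and 11 in CD44 low, at least 3.66-fold lower in CD44 high when 3 counts are taken as the limit of a 0. That limit takes the 11 counts as exact, and the counting interval of the ratio gives at least 2.51-fold. TPM2, the β-tropomyosin of muscle, had 32 counts in each library. ACTA2, smooth muscle actin, had 17 counts in CD44 high and 52 in CD44 low. Of the markers named for the group, TPM1 alone was abundant, with 1407 counts in CD44 high and 1340 in CD44 low.

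Only 6 of the 37 genes had under 100 counts in both libraries, the 5 named above other than TPM1 and MSN, which encodes moesin (75 counts in CD44 high and 59 in CD44 low). Together these 6 genes summed to 6.25 TPM in CD44 high and 8.44 TPM in CD44 low. The other 31 genes each had at least 1006 counts in each library, and the lowest of them, MYH10, stood at 20.9 TPM in CD44 high and 23.1 TPM in CD44 low. The gap between paralogs was wide. In TPM, ACTB exceeded ACTA2 3021-fold in CD44 high and 659-fold in CD44 low. TPM3 exceeded TPM2 402-fold in CD44 high and 351-fold in CD44 low, and TAGLN2 exceeded TAGLN 111-fold in CD44 high and 119-fold in CD44 low. EZR exceeded MSN 218-fold in CD44 high and 149-fold in CD44 low.

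**Figure D1:**
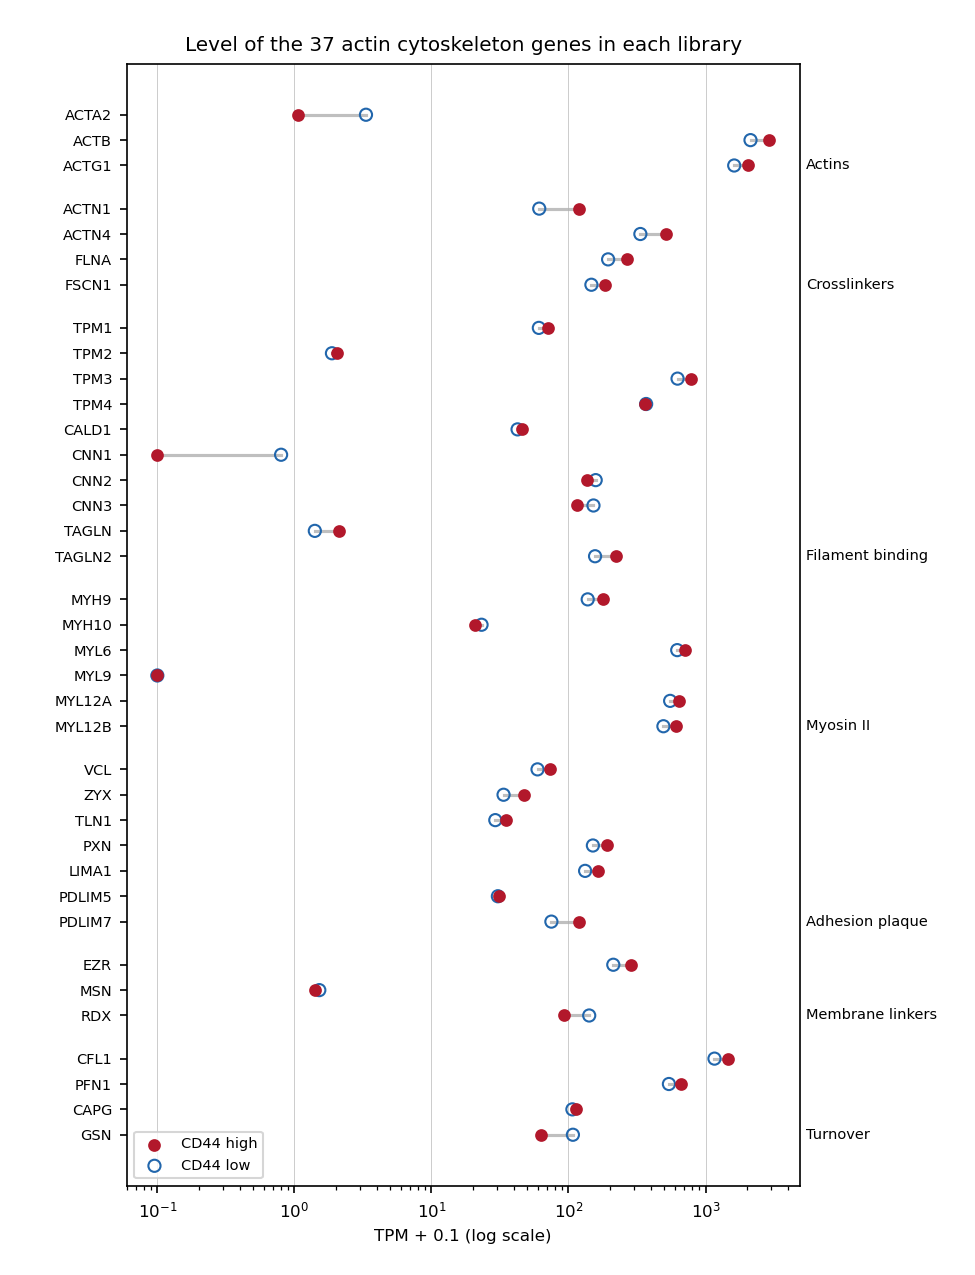
Level of each of the 37 genes in TPM plus 0.1 on a log axis, with filled points for the CD44 high library and open points for the CD44 low library, grouped by role. The 6 scarce genes ACTA2, TPM2, CNN1, TAGLN, MYL9 and MSN sit below 4 TPM in both libraries, and the 31 others sit at 20.9 TPM or above in CD44 high.

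Markers of other cells that carry these proteins were low as well. Of 9 smooth muscle markers, DES, LMOD1, SYNPO2 and MYOCD had 0 counts in both libraries, MYH11 had 1 count in CD44 high and 1 in CD44 low, and the list summed to 21.5 TPM in CD44 high and 13.5 TPM in CD44 low. SMTN, smoothelin, made up 94.6% of that sum in CD44 high and 69.6% in CD44 low, with 815 counts in CD44 high and 459 in CD44 low (ratio 1.78, interval 1.58 to 1.997). Of 9 stromal markers, 6 had 0 counts in both libraries, and COL1A1 had 175 counts in CD44 high and 292 in CD44 low (1.67-fold lower, interval 1.38 to 2.02). Of 5 leukocyte and blood markers other than CD68, CD14 had the most, with 9 counts in CD44 high and 2 in CD44 low. CD68, a lysosomal protein of macrophages that other cells also express, had 122.52 counts in CD44 high and 58.62 in CD44 low (ratio 2.09, interval 1.52 to 2.90).

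Squamous and epithelial markers differed between the groups in both directions. Of the 9 that reached 50 counts, 2 were higher in CD44 high (22.2%, against 16% of all genes) and 6 lower (66.7%, against 18.8%). KRT6A, a keratin of activated squamous cells, had 1528 counts in CD44 high and 5816 in CD44 low (3.80-fold lower, interval 3.59 to 4.03). KRT17 was 3.49-fold lower in CD44 high, the basal keratin KRT14 2.88-fold lower and the basal transcription factor TP63 2.07-fold lower, the last at 2551 counts in CD44 high and 5287 in CD44 low. CDH1 and ITGA6 were the other 2 lower genes. The simple-epithelial keratin KRT18 was higher in CD44 high at a ratio of 1.45 (interval 1.43 to 1.48), as was EPCAM at 1.26 (interval 1.22 to 1.31). The part of these differences in the values below was not tested.

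Across the group, small differences toward higher levels in CD44 high were common and large differences were few. Of the 33 genes that reached 50 counts in a library, 6 were higher in CD44 high (18.2%), against a background of 16% of 12371 genes, and 4 were lower (12.1%), against 18.8%. Both shares lie near the background. At 1.5-fold, 1 gene was higher against a background of 4.93%, and 3 were lower against 10.4%. At 2-fold, 0 genes were higher against 1.24%, and 1 was lower against 4.2%.

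Without a size threshold, 20 of the 33 genes had an interval wholly above equality (60.6%), against 32.4% of all genes tested, and 9 had one wholly below it (27.3%), against 31%. Highly expressed genes have narrow intervals, so the same shares were taken over genes with at least 1000 counts in both libraries. There 20 of 31 genes of the group lay above equality (64.5%), against 42.4% of 4378 genes, and 8 lay below it (25.8%), against 32.2%. The median log2 ratio was 0.15 over the 35 genes that reached 20 counts in a library and -0.01 over all genes that did. Over genes with at least 1000 counts in both libraries it was 0.16 for the 31 genes of the group and 0.04 for all 4378. Without the 9 genes whose counts are not whole numbers, the median of the group from 20 counts was 0.08. By role the medians were 0.40 for crosslinkers, 0.29 for membrane linkers, 0.16 for actins, 0.16 for adhesion plaque, 0.11 for myosin II, -0.04 for turnover and -0.13 for filament-binding proteins. The 37 genes took 1.53% of all counts in CD44 high (interval 1.526 to 1.537) and 1.29% in CD44 low (1.282 to 1.292).

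The split of calls depended on the scaling. It was 6 higher and 4 lower with size factors, 13 and 4 with deposited TPM, and 3 and 6 with TPM after removal of the mitochondrially encoded genes. These scalings also move all genes, with a median log2 ratio of all genes of 0.15 for TPM and -0.07 for TPM without mitochondrial genes. The median of the group exceeded that of all genes by 0.16 on the log2 scale with size factors, 0.15 with TPM and 0.13 with TPM without mitochondrial genes. In these 20-count medians the group and all genes are not matched for abundance. ACTN1, PDLIM7, ACTA2, CNN3, GSN and RDX were called under each of the 5 other scalings and priors tried, while FLNA, TAGLN2, ZYX and TLN1 kept their direction under all 5 but not their call. FLNA, at a log2 difference of 0.23, ZYX at 0.25 and TAGLN2 at 0.27 fell short of the threshold in TPM without mitochondrial genes, and TLN1, at 0.01 on that scale, fell short on both TPM scales. Other genes gained a call. ACTB, ACTN4 and EZR were called higher with TMM factors, total counts and TPM, and ACTN4 also in TPM without mitochondrial genes. ACTG1, CFL1, MYH9, PXN and TPM3 were called higher with TPM only. CNN2 and MYH10 were called lower only in TPM without mitochondrial genes.

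**Figure D2:**
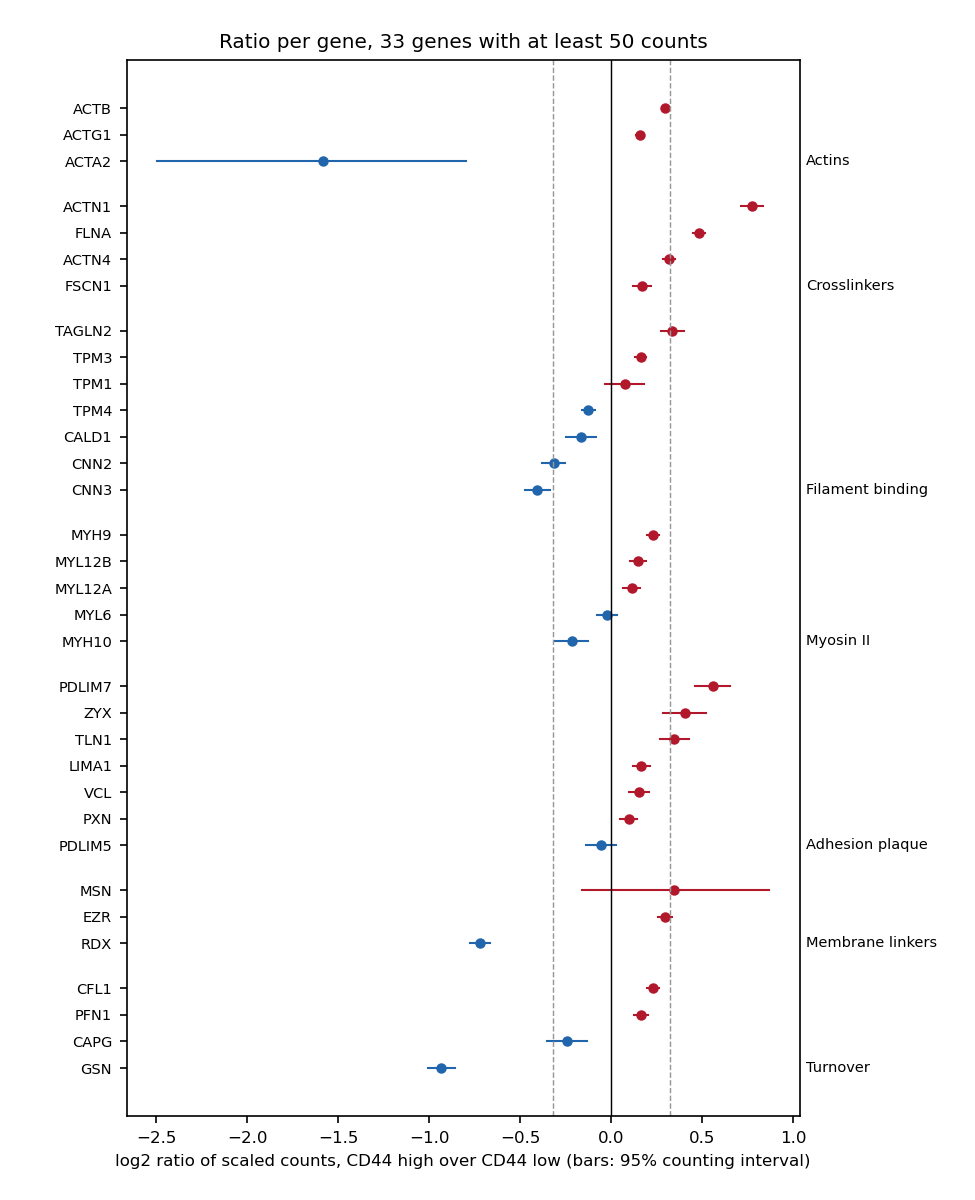
The log2 ratio of scaled counts, CD44 high over CD44 low, for the 33 genes that reached 50 counts in a library, with bars for the 95% counting interval and dashed lines at the 25% threshold in each direction. ACTN1 lies farthest to the right at 0.77, and ACTA2 at -1.58, GSN at -0.93 and RDX at -0.72 lie farthest to the left.

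The actins were the role with the largest summed level, 37.3% of the TPM of the 37 genes in CD44 high and 35.2% in CD44 low. ACTB, the β-actin of nonmuscle cells, had 71842 counts and 2900 TPM in CD44 high, against 58636 counts and 2129 TPM in CD44 low (ratio 1.23, interval 1.21 to 1.24), just under the size threshold. It made up 0.332% of counts in CD44 high and 0.257% in CD44 low. ACTG1, the γ-actin of the cortex, had 44158 counts in CD44 high and 39647 in CD44 low (ratio 1.11, interval 1.10 to 1.13). Relative to ACTB it stood at 0.709 in TPM in CD44 high and 0.760 in CD44 low. ACTA2 (chr10:88935074-88991390, GRCh38) was 3.06-fold lower in CD44 high (interval 1.74 to 5.64), the largest fold of the group among called genes and the one with the fewest counts. The use of strand in counting was not given in the sources used here, and ACTA2 overlaps FAS and STAMBPL1 on the opposite strand. FAS had 283 counts in CD44 high and 491 in CD44 low, and STAMBPL1 had 706 in CD44 high and 417 in CD44 low.

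All 4 crosslinkers lay above equality beyond counting error (100%, against 42.4% of genes with at least 1000 counts in both libraries). No other role had all its genes there. ACTN1 (chr14:68874143-68979440) encodes α-actinin of stress fibers and adhesions. It had 5989 counts and 119.59 TPM in CD44 high, against 3506 counts and 61.1 TPM in CD44 low, a ratio of 1.71 (interval 1.64 to 1.78). FLNA (chrX:154348524-154374638), filamin A, which links filaments into an orthogonal network, had 18362 counts in CD44 high and 13170 in CD44 low, a ratio of 1.40 (interval 1.36 to 1.43) that was not called in TPM without mitochondrial genes. ACTN4, the α-actinin paralog of the cortex, had 17281 counts in CD44 high and 13903 in CD44 low (ratio 1.24, interval 1.22 to 1.27). Its ratio in TPM was 1.53, and it was called higher with TMM factors, total counts and both TPM scales. FSCN1, the bundler of filopodia, had 7043 counts in CD44 high and 6279 in CD44 low (ratio 1.12, interval 1.09 to 1.16). ACTN4 was the more abundant α-actinin in both libraries, 4.29-fold over ACTN1 in CD44 high and 5.48-fold in CD44 low.

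ACTN1 transcripts contain one of a pair of alternative exons, or in some transcripts both, in the calcium-binding part of the protein, known as the nonmuscle and the smooth muscle exon. Their sequences are shown because the choice between them separates the nonmuscle from the muscle form. The exons were read from GRCh38 on the minus strand, chr14:68878989-68879069 and chr14:68878458-68878523.
ACTN1 nonmuscle exon: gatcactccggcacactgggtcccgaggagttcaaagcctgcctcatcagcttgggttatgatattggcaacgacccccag
ACTN1 smooth muscle exon: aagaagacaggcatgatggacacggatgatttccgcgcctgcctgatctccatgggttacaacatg

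Transcripts with the nonmuscle exon alone held 105.03 TPM in CD44 high and 56.8 TPM in CD44 low, which was 87.8% of the gene in CD44 high and 93.1% in CD44 low. Those with the smooth muscle exon, alone or beside the other, held 3.71 TPM in CD44 high and 0.54 TPM in CD44 low, from 164.4 estimated counts in CD44 high and 24.2 in CD44 low. Both forms stood higher in CD44 high, and the nonmuscle form made up most of the gene in both libraries. RSEM divides reads between transcripts by estimation, so such shares have no counting interval.

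Proteins that lie along the filament spread in both directions. TAGLN2 (chr1:159918107-159925732), the transgelin of nonmuscle cells, had 4461 counts in CD44 high and 3542 in CD44 low, a ratio of 1.26 (interval 1.21 to 1.32) that was not called in TPM without mitochondrial genes. CNN3 (chr1:94896949-94927278), acidic calponin, had 3159 counts in CD44 high and 4192 in CD44 low, 1.33-fold lower in CD44 high (interval 1.27 to 1.39). CNN2, the calponin of many nonmuscle cells, had 3662 counts in CD44 high and 4566 in CD44 low and fell just short of the threshold at a ratio of 0.803 (interval 0.769 to 0.839). CALD1 encodes caldesmon, which restrains actomyosin on the thin filament. It had 2275 counts in CD44 high and 2558 in CD44 low (ratio 0.890, interval 0.841 to 0.942), whereas its TPM of 45.5 in CD44 high and 42.4 in CD44 low lie in the opposite order.

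The tropomyosins were led by TPM3 and TPM4. TPM3 had 788 TPM in CD44 high and 625 TPM in CD44 low, from 18224 counts in CD44 high and 16328 in CD44 low (ratio 1.12, interval 1.09 to 1.14). TPM4 had 359.87 TPM in CD44 high and 368.5 TPM in CD44 low, from 11910 counts in CD44 high and 13026 in CD44 low (ratio 0.915, interval 0.893 to 0.938). TPM1 had 70.7 TPM in CD44 high and 60.7 TPM in CD44 low, and its count ratio of 1.05 spans equality (interval 0.975 to 1.13) and turns below it in TPM without mitochondrial genes. TPM2, with 1.96 TPM in CD44 high and 1.78 TPM in CD44 low, had a ratio of 1.001 (interval 0.594 to 1.69). None of the 4 tropomyosins passed the 25% threshold with size factors, and TPM3 was called higher with TPM.

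Tropomyosin genes are read from a distal start, which gives the long forms of muscle and stress fibers, or from an internal start, which gives short forms. The first coding exons are shown because they tell these forms apart, with the start codon in capitals. They were read from GRCh38 at chr15:63042830-63042943 and chr15:63048576-63048707 for TPM1, chr1:154182988-154183119 on the minus strand for TPM3, and chr19:16076566-16076697 for TPM4.
TPM1 distal: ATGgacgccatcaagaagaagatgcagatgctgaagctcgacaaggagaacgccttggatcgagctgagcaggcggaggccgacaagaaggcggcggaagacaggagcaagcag
TPM1 internal: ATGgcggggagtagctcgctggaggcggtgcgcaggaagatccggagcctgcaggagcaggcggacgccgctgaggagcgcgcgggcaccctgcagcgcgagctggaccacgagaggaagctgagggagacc
TPM3 internal: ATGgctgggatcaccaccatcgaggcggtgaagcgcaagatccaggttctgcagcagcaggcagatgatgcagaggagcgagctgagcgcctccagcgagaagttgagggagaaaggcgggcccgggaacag
TPM4 internal: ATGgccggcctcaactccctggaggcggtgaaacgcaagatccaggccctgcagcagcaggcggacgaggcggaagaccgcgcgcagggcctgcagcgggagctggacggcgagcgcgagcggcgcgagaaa

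The 3 internal exons all have 132 bases. TPM1 and TPM4 matched at 72.0% of them, TPM3 and TPM4 at 70.5%, and TPM1 and TPM3 at 62.9%. The internal start dominated in the abundant tropomyosins. It held 98.7% of TPM3 in CD44 high and 98.2% in CD44 low, and 85.7% of TPM4 in CD44 high and 81.1% in CD44 low, most of the rest of TPM4 starting further downstream. Transcripts of every annotated type are counted in these shares, also those not typed as protein coding. The distal start of TPM4 had 1.2 TPM in CD44 high and 3.56 TPM in CD44 low.

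TPM1 was the member with both kinds of start in use. Its distal start had 27.9 TPM in CD44 high and 20.8 TPM in CD44 low, or 39.5% of the gene in CD44 high and 34.3% in CD44 low. Its internal start had 38.4 TPM in CD44 high and 35.3 TPM in CD44 low, or 54.3% of the gene in CD44 high and 58.1% in CD44 low. In estimated counts the internal start lay in the opposite order, with 714 in CD44 high and 738 in CD44 low. The leading distal transcript was TPM1-206, with 852 coding bases, at 20.8 TPM in CD44 high and 14.8 TPM in CD44 low. The leading internal transcript was TPM1-208, with 744 coding bases, at 30.4 TPM in CD44 high and 28.3 TPM in CD44 low. Its estimated counts, 630 in CD44 high and 649 in CD44 low, lie in the opposite order. TPM1-201, a second distal form, ran opposite to TPM1-206, at 2.59 TPM in CD44 high and 3.59 TPM in CD44 low. TPM1-225, a further internal form, had 4.12 TPM in CD44 high and 4.68 TPM in CD44 low.

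**Figure D3:**
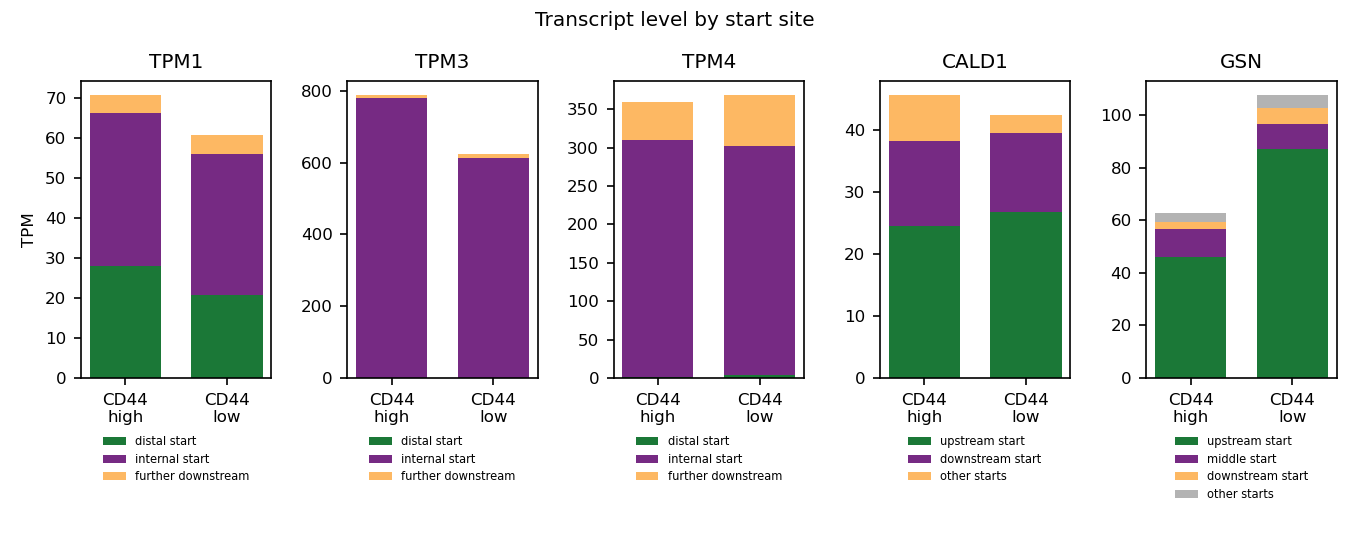
TPM of TPM1, TPM3, TPM4, CALD1 and GSN in the CD44 high bar and the CD44 low bar, stacked by the start site of the transcripts. TPM3 and TPM4 consist mostly of internal starts, TPM1 shows distal and internal starts side by side, and GSN was lower in CD44 high at its upstream and downstream starts but not at its middle start.

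Among the TPM3 transcripts, TPM3-207 led with 240.1 TPM in CD44 high and 220.5 TPM in CD44 low. Its estimated counts, 6571 in CD44 high and 6696 in CD44 low, lie in the opposite order. TPM3-206 followed with 175 TPM in CD44 high and 143 TPM in CD44 low, and TPM3-205, TPM3-203, TPM3-208 and TPM3-216 each held between 48.3 and 93.8 TPM in CD44 high and between 33.9 and 59.2 TPM in CD44 low. Of these, GENCODE 44 types only TPM3-205 and TPM3-206 as protein coding. It annotates TPM3-207 and TPM3-208 for nonsense-mediated decay, TPM3-216 with a retained intron and TPM3-203 without a defined coding sequence. In GENCODE 44, TPM3-203, TPM3-205, TPM3-207 and TPM3-208 have other ends than in the deposited data. TPM4 was nearly 1 transcript, TPM4-201, at 308 TPM in CD44 high and 297 TPM in CD44 low. The estimated counts of TPM4-201, 11483 in CD44 high and 12308.5 in CD44 low, lie in the opposite order. Beside it, TPM4-213 from further downstream had 30.0 TPM in CD44 high and 39.3 TPM in CD44 low. GENCODE 44 annotates TPM4-201 for nonsense-mediated decay and TPM4-213 without a defined coding sequence. Both have other ends there than in the deposited data. The transcripts of TPM2 rest on 32 counts in each library and are not divided here. CALD1 was read from an upstream start, with 24.5 TPM in CD44 high and 26.8 TPM in CD44 low. A downstream start of CALD1 had 13.7 TPM in CD44 high and 12.7 TPM in CD44 low. Estimated counts of that downstream start lie in the opposite order, 811 in CD44 high and 828 in CD44 low. The leading form of CALD1, the light caldesmon CALD1-202, had 21.3 TPM in CD44 high and 22.5 TPM in CD44 low. The heavy form of smooth muscle, CALD1-201, which alone among the matched transcripts carries the long exon of 1090 coding bases, had 2.77 TPM in CD44 high and 3.55 TPM in CD44 low, or 6.08% of the gene in CD44 high and 8.37% in CD44 low. Of the other CALD1 transcripts with at least 5% of the gene, CALD1-203 and CALD1-210 held between 5.75 and 7.05 TPM in either library. CALD1-210 is annotated for nonsense-mediated decay. CALD1-219, annotated with a retained intron, had 3.92 TPM in CD44 high and 0.49 TPM in CD44 low. These rest on 21.5 estimated counts in CD44 high and 2.97 in CD44 low.

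Of the myosin II chains measured, none passed the 25% threshold with size factors. MYH9 was called higher with TPM, and MYH10 lower in TPM without mitochondrial genes. MYH9, the heavy chain of myosin IIA, had 18220 counts in CD44 high and 15567 in CD44 low (ratio 1.17, interval 1.15 to 1.197). MYH10, the heavy chain of myosin IIB, had 1863 counts in CD44 high and 2169 in CD44 low (ratio 0.860, interval 0.808 to 0.915). MYH9 exceeded MYH10 in TPM 8.62-fold in CD44 high and 5.97-fold in CD44 low. The regulatory light chains of nonmuscle myosin, MYL12A and MYL12B, are neighbours on chromosome 18, and both have counts that are not whole numbers. MYL12A had 642 TPM in CD44 high and 552 TPM in CD44 low with a count ratio of 1.08 (interval 1.05 to 1.12) that turns below equality in TPM without mitochondrial genes, and MYL12B had 606 TPM in CD44 high and 493 TPM in CD44 low with a count ratio of 1.11 (interval 1.08 to 1.14).

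MYL6, the essential light chain, had 5335 counts in CD44 high and 5435 in CD44 low (ratio 0.983, interval 0.946 to 1.02), and its ratio turns above equality with TMM factors, total counts or TPM. Its transcripts end their coding sequence in an alternative exon or, skipping it, in the last exon. Both coding ends are shown because the forms differ only there, with the bases that differ between them in capitals, read at chr12:56160626-56160651 and chr12:56161387-56161412 in GRCh38 without the stop codon.
MYL6 alternative coding end: CgTtTgtGAgGCATAtCctgTCGggG
MYL6 last exon coding end: AgCtCgtCCgCATGGtGctgAATggC

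The ends share 11 of 26 bases. Transcripts with the alternative exon held 225 TPM in CD44 high and 237 TPM in CD44 low, or 31.8% of the gene in CD44 high and 38.2% in CD44 low, and those that skip it held 419 TPM in CD44 high and 318 TPM in CD44 low, or 59.3% of the gene in CD44 high and 51.2% in CD44 low. MYL6 held more of the skipping form in CD44 high at a near-equal total.

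Among adhesion plaque proteins, 3 of 7 genes were called, all higher in CD44 high (42.9%, against 16% of all genes), and 6 of 7 lay above equality beyond counting error (85.7%, against 42.4% of genes with at least 1000 counts in both libraries). PDLIM7 (chr5:177483394-177497606), a PDZ and LIM domain protein of stress fibers, had 2155 counts and 119.28 TPM in CD44 high, against 1467 counts and 74.9 TPM in CD44 low, a ratio of 1.47 (interval 1.38 to 1.57). ZYX (chr7:143381080-143391111), zyxin, a LIM protein of mature adhesions, had 1328 counts in CD44 high and 1006 in CD44 low, a ratio of 1.32 (interval 1.22 to 1.44) that was not called in TPM without mitochondrial genes. TLN1 (chr9:35696948-35732395), talin, which binds integrin tails, had 3022 counts in CD44 high and 2380 in CD44 low, a ratio of 1.27 (interval 1.204 to 1.34). It was no longer called on either TPM scale.

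The other plaque genes differed less. VCL, vinculin, had a ratio of 1.11 (interval 1.07 to 1.15), LIMA1, the filament-stabilising EPLIN, 1.12 (1.08 to 1.16), and PXN, the scaffold paxillin, 1.07 (1.03 to 1.10). PDLIM5, a relative of PDLIM7, had 2298 counts in CD44 high and 2392 in CD44 low (ratio 0.962, interval 0.908 to 1.02), and its ratio turns above equality with total counts or TPM. PDLIM7 and PDLIM5, of the same family, thus stood on different sides of the threshold in these libraries.

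The membrane linkers, which hold CD44 to cortical actin, diverged within 1 family. EZR, ezrin, had 12571 counts in CD44 high and 10278 in CD44 low, a ratio of 1.22 (interval 1.19 to 1.26). RDX (chr11:110174880-110296722), radixin, had 4278 counts and 93.0 TPM in CD44 high, against 7070 counts and 142 TPM in CD44 low, 1.65-fold lower in CD44 high (interval 1.59 to 1.72). The level of RDX relative to EZR was 0.323 in TPM in CD44 high and 0.667 in CD44 low. MSN had a ratio of 1.27 that spans equality (interval 0.893 to 1.82) and turns below it on both TPM scales. The main RDX transcript, ENST00000343115, held 64.1% of the gene in CD44 high and 62.3% in CD44 low, a small difference in share beside the difference in level.

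Of the turnover proteins, GSN stood apart. GSN (chr9:121207794-121332843), gelsolin, severs and caps filaments, and had 2239 counts and 62.6 TPM in CD44 high, against 4283 counts and 108 TPM in CD44 low. It was 1.91-fold lower in CD44 high (interval 1.82 to 2.01). CAPG, a capping protein of the gelsolin family, had 1260 counts in CD44 high and 1495 in CD44 low (ratio 0.844, interval 0.782 to 0.910), and its TPM of 113 in CD44 high and 107 in CD44 low lie in the opposite order. CFL1, cofilin, had 17812 counts in CD44 high and 15232 in CD44 low (ratio 1.17, interval 1.15 to 1.196), and PFN1, profilin, had 10975 in CD44 high and 9823 in CD44 low (ratio 1.12, interval 1.09 to 1.15).

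The lower level of GSN in CD44 high was found at its upstream and downstream starts and not at its middle start. Transcripts from the upstream start, near position 121268060 of chromosome 9, had 46.1 TPM in CD44 high and 87.2 TPM in CD44 low, from 1709 estimated counts in CD44 high and 3565 in CD44 low. Those from the middle start, near position 121286123, had 10.5 TPM in CD44 high and 9.32 TPM in CD44 low, from 337 estimated counts in CD44 high and 334 in CD44 low. A downstream start had 2.76 TPM in CD44 high and 6.34 TPM in CD44 low, from 102.8 estimated counts in CD44 high and 261.9 in CD44 low. GSN overlaps RAB14 on the opposite strand, which had 5132 counts in CD44 high and 6135 in CD44 low.

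Transcript shares differed by at least 10 percentage points in 5 of the 31 genes with at least 200 counts in both libraries, against a background of 33.2% of 9346 genes. The background is not matched for depth, since its genes enter at 200 counts while the 31 genes each had at least 1006. CAPG had the widest difference, 17.0 points, in CAPG-203, which held 7.32% of the gene in CD44 high and 24.3% in CD44 low, while CAPG-210 ran the other way at 27.0% in CD44 high and 14.97% in CD44 low. GSN-203 held 9.44% of GSN in CD44 high and 22.2% in CD44 low, and ZYX-202 held 13.5% of ZYX in CD44 high and 3.25% in CD44 low. The coding transcript TLN1-201 held 65.2% of TLN1 in CD44 high and 54.0% in CD44 low. TLN1-207 and CNN3-204 are transcripts for which GENCODE 44 defines no coding sequence. TLN1-207 held 6.41% of TLN1 in CD44 high and 18.0% in CD44 low, and CNN3-204 held 3.54% of CNN3 in CD44 high and 13.9% in CD44 low.

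These shares are of TPM, which weights short transcripts up. As a share of counts TLN1-207 was 0.668% of TLN1 in CD44 high and 2.21% in CD44 low, from 20.2 estimated counts in CD44 high and 52.6 in CD44 low, and CNN3-204 was 0.730% of CNN3 in CD44 high and 3.10% in CD44 low. By counts neither TLN1, at most 1.67 points apart, nor CNN3, at most 8.08 points apart, passed 10 points. The 4 genes that passed by counts were CAPG, GSN, ZYX and FLNA, the last just at 10 points in FLNA-201, which held 18.7% of FLNA counts in CD44 high and 8.73% in CD44 low.

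Many genes of this system are targets of serum response factor, which binds the CArG box and is switched on through its coactivators when monomeric actin falls. RefSeq promoter windows of GRCh38, from 250 bases before to 50 after each start, were searched for the CArG box, which reads the same class of letters on both strands. Of the 37 genes 33 had a window, the 4 others being ACTB, TAGLN, MYL9 and FSCN1. A CArG box was found in 5 of the 33, ACTN1, ACTG1, CNN2, TPM4 and FLNA (15.2%), against 1.6% of all 27305 genes. The 33 genes had more windows each than genes at large, and by window the share was 5 of 63 (7.94%), against 1.29% of all 35116 windows. The matches are shown with their surroundings, the box in capitals.
ACTN1 (chr14:68977673-68977792, minus): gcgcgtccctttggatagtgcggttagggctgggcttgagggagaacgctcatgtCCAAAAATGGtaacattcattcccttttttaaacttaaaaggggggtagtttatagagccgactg
ACTG1 (chr17:81512874-81512903, minus): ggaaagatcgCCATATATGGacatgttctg
CNN2 (chr19:1026464-1026583, plus): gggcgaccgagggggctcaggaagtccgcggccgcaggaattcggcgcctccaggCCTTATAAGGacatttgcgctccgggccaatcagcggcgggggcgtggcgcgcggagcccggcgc
TPM4 (chr19:16067310-16067429, plus): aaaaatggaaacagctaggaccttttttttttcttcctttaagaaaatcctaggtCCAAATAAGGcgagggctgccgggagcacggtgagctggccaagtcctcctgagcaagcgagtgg
FLNA (chrX:154374709-154374738, minus): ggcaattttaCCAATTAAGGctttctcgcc

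The boxes began 89 to 173 bases before the transcription start around which their window was drawn. In 2 of the 5 genes that start was the one in use. Transcripts that begin within 500 bases of it held 86.5% of ACTG1 TPM in CD44 high and 85.5% in CD44 low, and 91.1% of CNN2 TPM in CD44 high and 88.3% in CD44 low. They held 2.03% of FLNA in CD44 high and 1.58% in CD44 low, 0.333% of TPM4 in CD44 high and 0.966% in CD44 low, and 0 TPM of ACTN1 in both libraries. Of the 5 genes with a box, ACTN1 and FLNA were called higher, ACTG1 had a ratio of 1.11, TPM4 0.915 and CNN2 0.803. The part of the box in these ratios was not tested.

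The wider actin system was read from lists of other genes. Of 83 genes found, 79 had at least 50 counts in a library, and 13 of these were higher and 10 lower in CD44 high by the 25% rule (16.5%, against 16% of all genes, and 12.7%, against 18.8%), with a median log2 ratio of -0.02. Related crosslinkers and plaque proteins had 9 higher (39.1%) and 5 lower (21.7%) of 23, against the same backgrounds of 16% and 18.8%, and a median of 0.21 over the 24 genes that reached 20 counts. Among them ANLN, anillin of the cleavage furrow, had 21538 counts in CD44 high and 14334 in CD44 low (ratio 1.504, interval 1.47 to 1.54), TLN2, the second talin, had 249 in CD44 high and 166 in CD44 low (ratio 1.502, interval 1.23 to 1.84), and PDLIM1, a relative of PDLIM7, had 2419 in CD44 high and 3968 in CD44 low (1.64-fold lower, interval 1.56 to 1.72). The other 4 lower genes of this list were LPP, MYH14, PLS3 and SLC9A3R1.

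Of 18 genes of the Arp2/3 and WAVE complexes, which nucleate branched filaments, 0 were higher (0%, against 16% of all genes). In that list 1 was lower (5.56%, against 18.8%), WASL at a ratio of 0.751. The most abundant of them, CTTN, cortactin of branched networks, had 28925 counts in CD44 high and 30303 in CD44 low (ratio 0.956, interval 0.9403 to 0.971), and NCKAP1 of the WAVE complex had 12174 in CD44 high and 13991 in CD44 low (ratio 0.871, interval 0.850 to 0.893). Of 18 other genes of filament dynamics, 1 was higher (5.56%, against 16%), CFL2, the second cofilin, at a ratio of 1.41, and 0 were lower (0%, against 18.8%). The thymosins, which hold monomeric actin, had the most counts there. TMSB10 had 16792 counts in CD44 high and 13454 in CD44 low (ratio 1.249, interval 1.22 to 1.28), just under the threshold, and TMSB4X had 12060 in CD44 high and 13276.5 in CD44 low (ratio 0.909, interval 0.887 to 0.932). LPP, MYH14, PLS3, SLC9A3R1, WASL and CFL2 were singled out after their values had been seen.

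**Figure D4:**
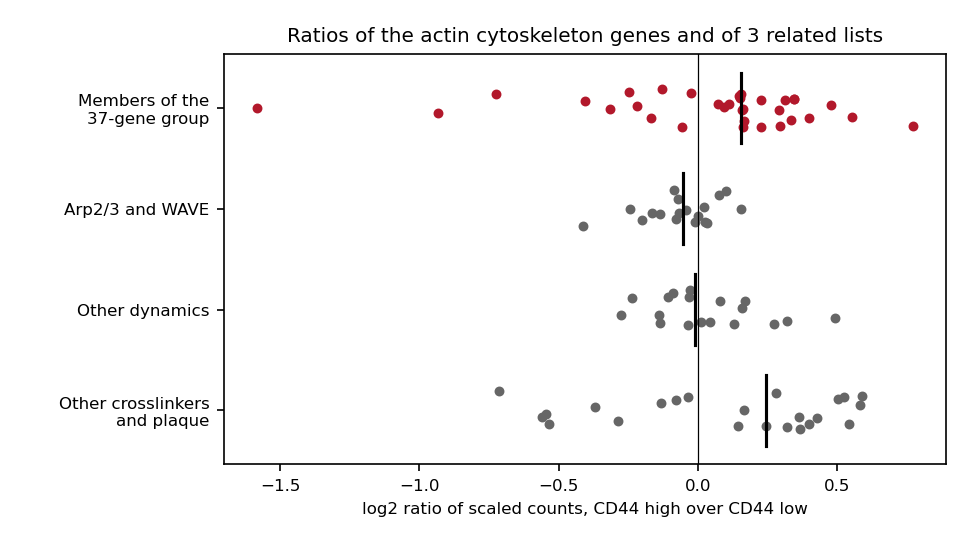
The log2 ratio of scaled counts, CD44 high over CD44 low, of the 33 measured genes of the group and of 3 lists of related actin genes, each point a gene with at least 50 counts and each vertical bar the median of the points drawn. The Arp2/3 and WAVE genes gather near equality, with 1 of 18 past the 25% threshold, and the related crosslinkers and plaque genes spread on both sides.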

How the data were processed

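Groups were taken from the sample labels. The authors prepared poly(A) libraries whose adapters held molecular identifiers, sequenced both ends, converted the runs with bcl2fastq, mapped them to GRCh38 with STAR, quantified genes and transcripts with RSEM and compared the libraries with EBSeq. Use of the identifiers or of strand in counting, and the annotation release, were not given in the sources used here. Expected counts from RSEM, deposited by the authors after division by a size factor, were brought back to unscaled values through the step of each column (deviation at most 2.91e-07 of a step). They also deposited TPM, scaled by transcript length and by the library's sum. Columns with the authors' fold changes and false discovery rates were not used.

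Counts were rescaled by median-of-ratios size factors and a prior count of 0.5 was added for log2 values. Intervals are exact conditional binomial (Clopper-Pearson) intervals on rounded counts, shares of counts carry exact binomial intervals, and both cover counting error only. No test across genes was made, as each group has 1 library. A gene was called from 50 counts in a library and a difference of 25%, and medians used genes that reached 20 counts. Of the 37 genes, 9 had counts that deviate from whole numbers by more than 0.05: ACTB, ACTG1, ACTN1, ACTN4, TPM3, TPM4, TAGLN2, MYL12A and MYL12B. In such genes some reads were divided with other loci, which were not identified. Their levels are uncertain to that extent.

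Start sites were grouped where 5′ ends lay within 500 bases. Exons, transcript names and coding lengths come from GENCODE 44 (GRCh38), which holds 461 of the 480 transcripts by identifier and 362 with the same ends. Promoter windows come from RefSeq on GRCh38. The genes, the lists and the rules were chosen with earlier results of these data known. All 37 genes could be named, in full the markers TAGLN, TPM1 and MYL9, the tropomyosins, CALD1 and every called gene. Named from the other lists were genes past 1.5-fold, otherwise up to 2 with the most counts and, singled out later, some called genes, and from transcripts those with 5% of a tropomyosin or CALD1 or a share difference of 10 points. In the wider lists, 83 of 86 symbols were found, and 1 of these lists is counted in their total but not reported here. Alternatives were TMM factors (edgeR 4.0.16, R 4.3.3), scaling by total counts, log2(TPM + 1) with and without mitochondrial genes, other priors and count minimums. Calls on TPM used the count minimum and the size of the difference, without an interval. The ratio and its interval were tested on simulated data.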

Additional observations from a re-analysis of the deposited data

How the results depend on the processing

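No paired analysis was possible because each group has 1 library, and for the same reason no library could be left out. In these alternatives no called gene changed direction. The 1.5-fold rule gave 1 gene higher with size factors, 2 with TMM factors, 2 with total counts and 3 with TPM. The 25% rule gave 6 higher with size factors, 13 with TPM and 3 with TPM without mitochondrial genes, and in the wider lists 13 higher and 10 lower with size factors, 23 higher and 5 lower with TPM, and 7 higher with TPM without mitochondrial genes. The 2-fold rule gave 1 lower, 2 with TPM without mitochondrial genes, 2 with a count minimum of 10 and 0 with a minimum of 200, which leaves out ACTA2 by construction. The median log2 ratio of the group was 0.30 with TPM and 0.08 without the 9 genes whose counts are not whole numbers. The cause of these changes was not tested, except for the count minimums. Over the 33 genes with at least 50 counts, the sign differed for 1 with TMM factors, 2 with total counts, 5 with TPM, 3 with TPM without mitochondrial genes and 0 with a prior count of 5. Transcript shares past 10 points were found in 4 genes by counts and 6 by transcripts of at least 1 TPM.

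Depth limited ACTA2, TAGLN, CNN1, TPM2, MSN and MYL9, each with 75 counts or fewer. The spread between cultures or sorts is unknown.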
